A study of Mus musculus with 15 samples.

Results

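Colon RNA of mice given azoxymethane (AOM), dextran sulfate sodium (DSS) and the compound APX3330 was compared with colon RNA of the Control group. The comparison holds 6 of the 15 libraries of the series, 3 in each group, chosen by their labels, and covers all genes of the count table. The mice were male C57BL/6J animals of 6 to 10 weeks. By the protocol, the APX3330 group received 10 mg/kg of AOM by intraperitoneal injection on day 0. DSS at 2.5% was the only drinking water on days 7 to 11, 28 to 32 and 49 to 53. On those same days 25 mg/kg of APX3330 was given by intraperitoneal injection once a day. The other 9 libraries are AOM/DSS mice injected with saline in place of APX3330, in groups labelled D27, D48 and D100. The same cycle days are given for them, although day 27 precedes the cycle from day 28 and day 48 that from day 49. Their titles name cycle 1 for D48 and cycle 2 for D100. The Control group is labelled as wild type C57BL/6 with no agent and no day, whereas the protocol shared by all samples says that AOM was given to every mouse, so what Control mice received is not settled here. No day is given for APX3330 either, so how many DSS cycles came before its sampling is not settled. AOM, DSS, injections, APX3330 and time therefore cannot be told apart in APX3330 against Control, and the saline groups are given beside single genes for that reason. The labels do not state that each library came from its own animal, so p-values cover only the spread among these libraries, which may be technical.

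AOM is a carcinogen activated in the liver and colon, and DSS strips and inflames the colonic epithelium, so that repeated cycles lead to colitis-associated tumours. APX3330, also called E3330, is an inhibitor of the redox function of APE1/Ref-1, the protein encoded by Apex1. APE1 cuts DNA at sites that have lost a base during base excision repair, and through its redox function it keeps transcription factors such as AP-1, NF-kB, HIF-1 and p53 in a reduced state in which they bind DNA. Goblet cells of the colon secrete the mucin and the proteins of the mucus layer that separates bacteria from the epithelium, tuft cells sense luminal signals, and absorptive colonocytes take up salt and water.

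Counts per library lay between 13548661 and 15346724 in the 6 libraries and between 13548661 and 17919613 in all 15. Values are CPM, counts scaled to a library total of 1000000, and are given in the order of replicates 1, 2 and 3, which are names and not a sequence in time. Library pairs within a group differed by more than counting noise, with a median absolute log2 difference of 0.204 to 0.211 between Control libraries and of 0.235 to 0.292 between APX3330 libraries. Genes that define intestinal epithelium were present in all 6 libraries: 12 of 12 were tested, and together they took 1.51%, 1.57% and 1.58% of the counts in Control and 1.14%, 1.28% and 1.46% in APX3330. Of these 12 genes 1 was higher and 2 were lower in APX3330, and 0 were lower when any 1 library other than APX3330 replicate 3 was left out. Control replicates 1 and 3 held transcripts of squamous epithelium and skeletal muscle that Control replicate 2 and all APX3330 libraries nearly lacked, so counts of genes are also given with Control replicate 2 as the only Control library, under the assumption that this library varies like those of the other groups. Saline libraries stood apart too. Replicate 2 of saline D48 had 4.99% of its counts in exocrine pancreas genes and replicate 3 had 1.36%, against 0.0366% or less in each of the other 13 libraries. Squamous genes took 0.0913% in saline D100 replicate 1, between the values of Control replicates 1 and 3, and 0.0104% in saline D48 replicate 2. Many comparisons with saline D48 are therefore also given against D48 replicate 1 alone, again assumed to vary like the other groups. Many of those with saline D100 are also given without D100 replicate 1. Counts of list members called against saline D48 include replicates 2 and 3 unless D48 replicate 1 alone is named. For several lists only the median is given for D48 replicate 1 alone.

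Of 18038 genes tested with edgeR at an adjusted p below 0.05, 1291 (7.16%) were higher and 1475 (8.18%) lower in APX3330 than in Control, together 15.3%. The median log2 fold change was 0.66 among genes called higher and -0.84 among genes called lower, against 0.0153 over all genes tested. A change by more than 1 on the log2 scale was fitted for 392 of the genes called higher and 575 of those called lower. Tested against a change of at least 1 on that scale, 53 genes (0.294%) were higher and 36 (0.2%) lower. With Control replicate 2 as the only Control library, 156 genes (0.865%) were higher and 220 (1.22%) lower. Leaving out Control replicate 1 left 696 genes higher and 828 lower, leaving out Control replicate 3 left 821 and 993, and leaving out APX3330 replicate 2 left 849 and 933. In 5851 genes (32.4%) no APX3330 library overlapped the Control libraries. The lists with the largest shares of members higher were those of the unfolded protein response, goblet cells and MHC class II, and those with the largest shares lower were skeletal muscle, smooth muscle, squamous epithelium, fibroblasts and posterior Hox genes.

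**Figure D1:**
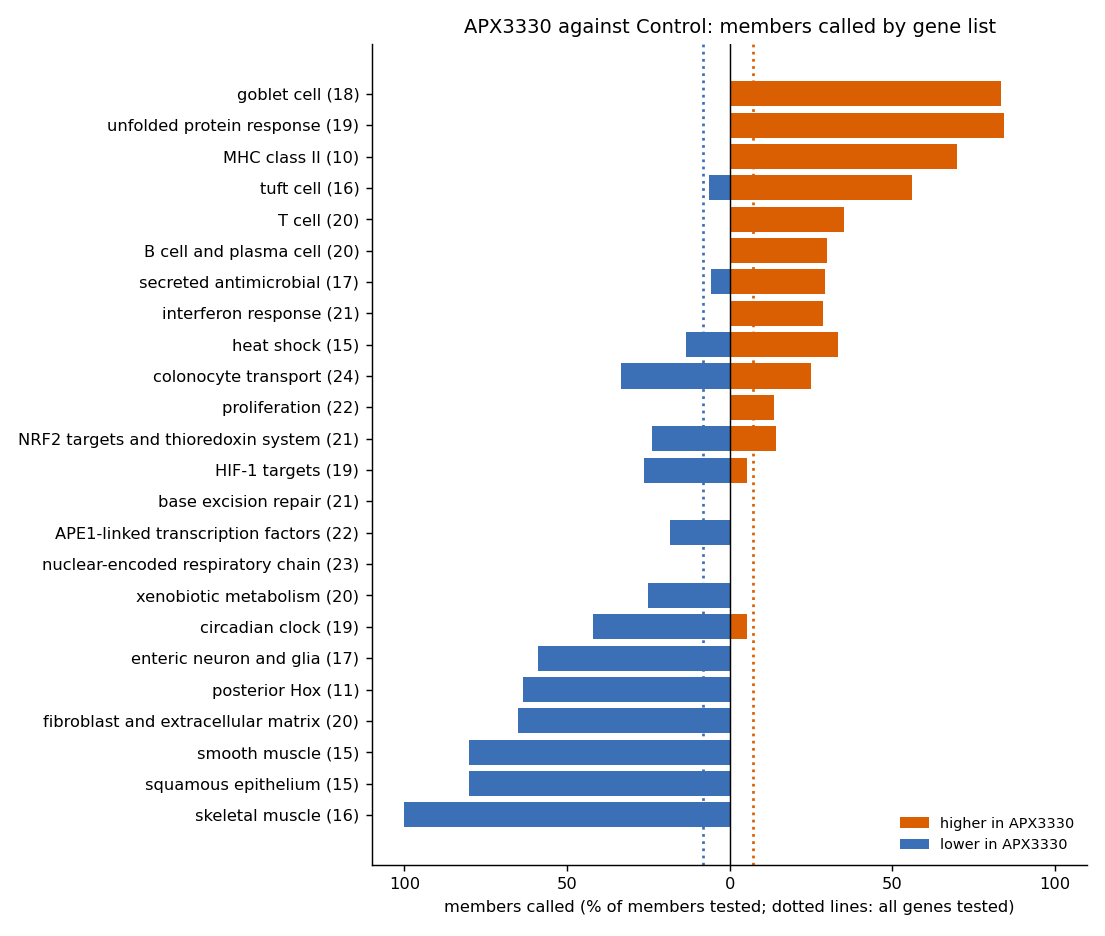
Share of the tested members of 24 of the 39 gene lists that were called higher (orange, right) or lower (blue, left) in APX3330 than in Control, in percent, with the number of members tested in parentheses. The dotted lines mark the 7.16% and 8.18% of all 18038 genes called higher and lower; goblet cell genes reach 83.3% on the right and smooth muscle genes 80.0% on the left.

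Goblet cell genes were higher in APX3330 as a group. Of 18 members tested 15 were called higher and 0 lower, with a median log2 fold change of 1.20 against 0.0153 over all genes. The counts of the 18 genes together took 1.20%, 1.12% and 1.09% of the libraries in Control and 7.85%, 6.55% and 4.83% in APX3330. In bulk RNA, more cells of a type and more RNA per cell cannot be told apart. Muc2, the gel-forming mucin of colonic mucus (chromosome 7, 141690340 to 141754693, plus strand, GRCm38), stood at 2439.8, 2649 and 2297 CPM in Control and 12785, 10678 and 11488 CPM in APX3330. It rose 4.73-fold between the means, with a log2 fold change of 2.24 ± 0.192 (SE), adjusted p = 1.07e-05, and the groups did not overlap. Clca1, a secreted metalloprotease that processes mucus, lay at 2687, 2069 and 2087 CPM in Control and 35614, 30558 and 15999.9 CPM in APX3330 (log2 fold change 3.59 ± 0.313 (SE), adjusted p = 1.28e-05). APX3330 replicate 3 was the lowest of its group for Clca1 and still far above the 3 Control libraries. Fcgbp, a mucus protein that is cross-linked with Muc2, measured 3707, 3608 and 3622 CPM in Control and 25968, 21189 and 16877 CPM in APX3330 (log2 fold change 2.55 ± 0.242 (SE), adjusted p = 1.98e-05).

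Regulators of the lineage were measured as well. Spdef, a transcription factor of goblet cell maturation, stood at 29.5, 23.9 and 27.3 CPM in Control and 74.8, 123 and 103 CPM in APX3330 (log2 fold change 1.90 ± 0.174 (SE), adjusted p = 1.59e-05), and every APX3330 library lay above every Control library. Agr2, a protein disulfide isomerase needed for Muc2 production, lay at 409, 449.7 and 459 CPM in Control and 1341, 1113 and 904 CPM in APX3330 (log2 fold change 1.35 ± 0.143 (SE), adjusted p = 6.28e-05). Bhlha15 (Mist1), a transcription factor that scales up the secretory machinery, was among the largest of the even changes, those with a range of at most 2-fold within each group. It measured 3.09, 2.56 and 2.4 CPM in Control and 19.4, 22.4 and 20 CPM in APX3330, with a log2 fold change of 2.94 ± 0.34 (SE), adjusted p = 0.000101. The 3 goblet members that were not called were the potassium channel gene Kcnma1, Tff3 and Zg16. The trefoil factor Tff3 stood at 282, 254 and 243 CPM in Control and 314, 353 and 235 CPM in APX3330 (adjusted p = 0.511). The lectin Zg16 was at 1183, 1166 and 1032 CPM in Control and 1285, 1103 and 1476 CPM in APX3330 (adjusted p = 0.518) and was not called either. With Control replicate 2 as the only Control library 11 of the 18 members were called higher, and 14 or 15 were called when any 1 of the 6 libraries was left out.

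Secreted defence proteins held the largest rises of the comparison. Of 17 members of the secreted antimicrobial list tested 5 were higher and 1 lower, with a median log2 fold change of 0.16. Ang4, an antimicrobial ribonuclease of secretory cells (chromosome 14, 51763878 to 51773590, minus strand, GRCm38), was near the limit of detection in Control, at 0.965, 0.803 and 0.532 CPM, and lay at 3168, 2629 and 789 CPM in APX3330. Its means differed 2863-fold, with a log2 fold change of 11.47 ± 1.05 (SE), adjusted p = 1.59e-05. Retnlb (RELM-beta), a goblet cell protein that kills Gram-negative bacteria, measured 0.257, 0.292 and 0.2 CPM in Control and 1044, 649 and 244 CPM in APX3330. The difference in Retnlb rested on 11 counts in Control against 28828 in APX3330, a log2 fold change of 11.30 ± 1.37 (SE), adjusted p = 0.000128. Itln1, a lectin that binds microbial sugars, stood at 0.515, 0.584 and 0.532 CPM in Control and 62.7, 45.5 and 17.4 CPM in APX3330 (log2 fold change 6.25 ± 0.891 (SE), adjusted p = 0.000403). All 3 of these genes were lowest in replicate 3 of APX3330, and Ang4 was 4-fold lower there than in replicate 1.

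Reg4, a secreted lectin of enteroendocrine and secretory cells, lay at 169, 198 and 197 CPM in Control and 3347, 2541 and 785 CPM in APX3330 (log2 fold change 3.56 ± 0.495 (SE), adjusted p = 0.000337). Pla2g2a, a secreted phospholipase that attacks bacterial membranes and whose coding sequence is known to be disrupted in C57BL/6 mice, measured 1.42, 3.73 and 1.86 CPM in Control and 35.3, 21.1 and 20.8 CPM in APX3330 (log2 fold change 3.47 ± 0.454 (SE), adjusted p = 0.000225). Mptx1, a pentraxin of the mucosa, stood at 692, 722 and 767 CPM in Control and 13712, 11596 and 5321 CPM in APX3330 (log2 fold change 3.81 ± 0.503 (SE), adjusted p = 0.000232). Pla2g4c, a cytosolic phospholipase, lay at 0.45, 0.657 and 0.466 CPM in Control and 101, 51.9 and 38.1 CPM in APX3330 (log2 fold change 6.92 ± 1.62 (SE), adjusted p = 0.0102). The member that fell was Lypd8, a colonocyte surface protein that holds flagellated bacteria away from the epithelium, at 8247, 9387 and 9172 CPM in Control and 5685, 6379 and 6805 CPM in APX3330 (log2 fold change -0.51 ± 0.0917 (SE), adjusted p = 0.00198). Reg3b and Reg3g, inducible lectins against bacteria, stayed at or below 1.55 CPM in all 6 libraries and were not called.

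These secretory genes were also measured in the saline mice. In the D27, D48 and D100 saline groups Ang4 lay at 1998 ± 318, 366 ± 449 and 2683 ± 559 CPM (mean ± SD, n = 3 each), Retnlb at 1078 ± 359.7, 132 ± 186 and 1219 ± 347 CPM and Clca1 at 21022 ± 1615, 9867 ± 4539 and 26527 ± 3644 CPM. All of these comparisons share the APX3330 libraries. APX3330 minus saline gave log2 fold changes of 0.14, 2.59 and -0.29 for Ang4 at D27, D48 and D100, with adjusted p = 0.916, 0.0141 and 0.894. For Clca1 they were 0.38, 1.47 and 0.05, with adjusted p = 0.411, 0.00288 and 0.968, and for Muc2 -0.21, 0.12 and -0.69, with adjusted p = 0.482, 0.703 and 0.107. Ang4 and Clca1 were thus called against saline at D48, where their saline means were lowest, and not at D27 or D100, which does not show equal levels there. Against D48 replicate 1 alone both kept the call (adjusted p = 0.00404 and 0.0186), and without D100 replicate 1 Muc2 was lower than at saline D100 (log2 fold change -0.91, adjusted p = 0.0151).

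The goblet cell and antimicrobial lists had fewer members higher against each saline group than against Control. Of all genes tested 4.71% were higher and 4.37% lower in APX3330 than in saline D27, 9.41% and 10.3% than in D48 and 0.305% and 0.2% than in D100, and the median log2 fold changes of all genes were -0.0079, -0.0086 and -0.0048. Of the 17 secreted antimicrobial genes 0 were higher and 6 lower than at D27, 3 higher and 10 lower than at D48 and 0 called at D100, with medians of -0.81, -0.70 and -0.55. Of the 18 goblet cell genes 0 were higher and 1 lower than at D27, 4 higher and 2 lower than at D48 and 0 called at D100, with medians of 0.11, 0.30 and -0.10. Against D48 replicate 1 alone 4 antimicrobial genes were higher and 6 lower, and 1 goblet gene was higher and 0 lower. Without D100 replicate 1 the antimicrobial count stayed at 0 and 1 goblet gene, Muc2, was lower.

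**Figure D2:**
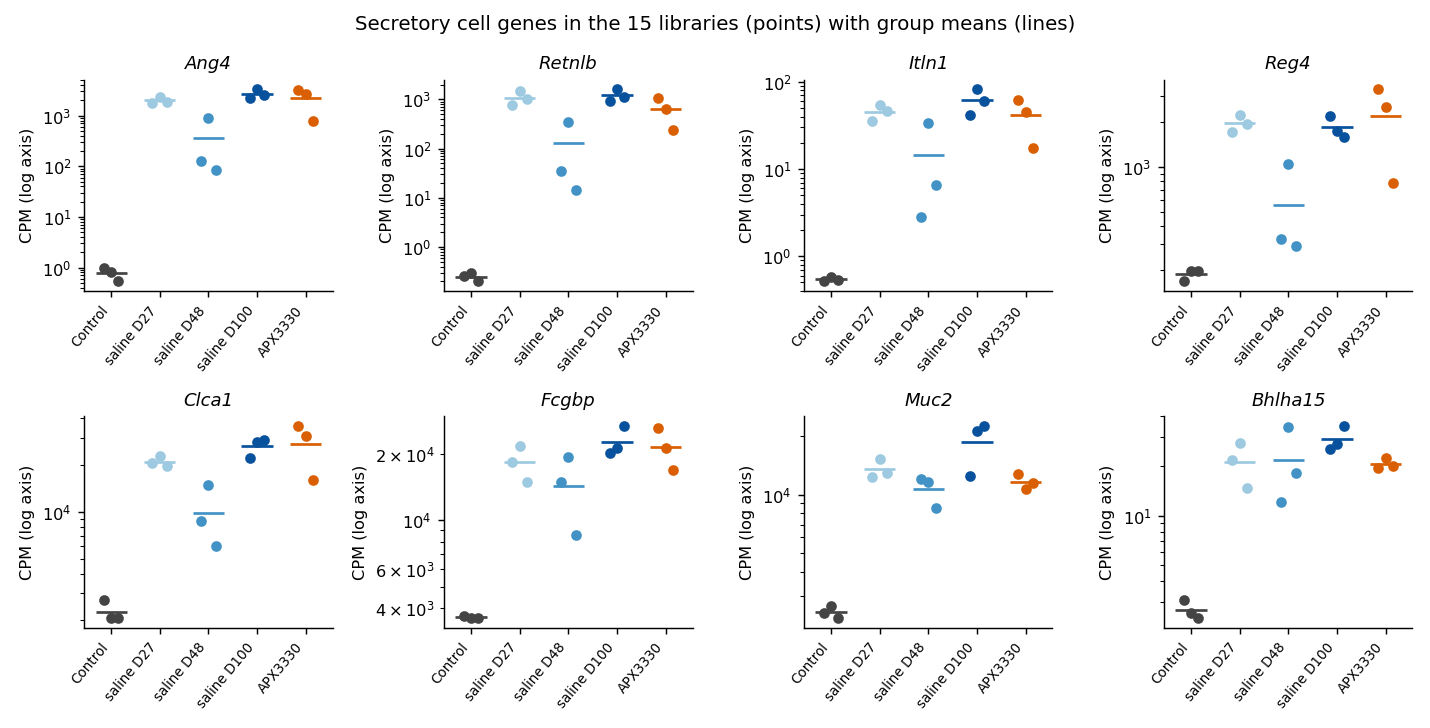
CPM (log axis) of 8 secretory cell genes in each of the 15 libraries (points), with the mean of each group of 3 (lines). Control is the lowest group for all 8 genes; Ang4 stays below 1 CPM in Control and lies between 789 and 3168 CPM in APX3330.

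Chaperones and enzymes of the endoplasmic reticulum were higher in APX3330. The unfolded protein response raises these genes when secretory proteins load the endoplasmic reticulum, through the transcription factors XBP1, ATF6 and ATF4. Of 19 members tested 16 were higher and 0 lower, with a median log2 fold change of 0.69. Hsp90b1 (GRP94), the endoplasmic reticulum form of HSP90, stood at 184, 231 and 204 CPM in Control and 374, 453 and 399 CPM in APX3330 (log2 fold change 0.99 ± 0.118 (SE), adjusted p = 0.000122). The disulfide isomerase Pdia6 lay at 131, 144 and 162 CPM in Control and 334, 311 and 288 CPM in APX3330 (log2 fold change 1.10 ± 0.148 (SE), adjusted p = 0.000266). Both genes had no overlap between the groups, and both fitted changes were near 1 on the log2 scale. Pdia4, of the same enzyme family, measured 102, 102 and 102 CPM in Control and 163, 216 and 185 CPM in APX3330 (log2 fold change 0.88 ± 0.127 (SE), adjusted p = 0.000421). Pdia3, which folds glycoproteins with calreticulin, stood at 473, 546 and 540.5 CPM in Control and 849, 792 and 748 CPM in APX3330 (log2 fold change 0.61 ± 0.0871 (SE), adjusted p = 0.000383). Creld2, a secreted stress protein, lay at 24.2, 30.8 and 27.6 CPM in Control and 49, 90.4 and 69.3 CPM in APX3330 (log2 fold change 1.34 ± 0.221 (SE), adjusted p = 0.00115), with the lowest APX3330 library at 49 CPM above the highest Control library at 30.8 CPM. Between 14 and 18 members were called when 1 library was left out, and 4 with Control replicate 2 as the only Control library. None of these 5 genes was called against saline D27 or D100, where adjusted p was at least 0.13, and Creld2 was lower than at saline D48 (log2 fold change -0.66, adjusted p = 0.0392). Creld2 was not called against D48 replicate 1 alone, the D48 library without the pancreas transcripts (log2 fold change -0.45, adjusted p = 0.414). Of the whole list 1 member was higher than at D27, 1 was higher and 1 lower than at D48 and 0 were called at D100, and against D48 replicate 1 alone 0 were called.

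Promoters of some of these genes carry a shared element. The endoplasmic reticulum stress element (ERSE), CCAAT and CCACG with 9 bases between them, was searched on both strands in RefSeq promoters (GRCm38.p6) from 250 bases before to 50 bases after the start. It was found in 6 of the 17 unfolded protein response members with a promoter entry (35.3%), namely Hspa5, Hsp90b1, Creld2, Pdia6, Dnajc3 and Calr, and in 20 of 12534 tested genes with an entry (0.16%). TGACGTGG, another element of this response, was found in 0 of the 17 and in 1.02% of tested genes. The letters of ERSE can overlap TGACGTGG and the CACGTG motif used below in CACG. A match describes the letters in the window and is no measure of binding. The promoters of 3 named members that rose are shown 5′ to 3′ on the strand of the gene, because they carry the element beside the change, with ERSE matches on either strand in capitals. Hsp90b1 (chr10:86705395-86705694, minus strand) has 2 matches, whose first bases lie at positions -212 and -107 with the start as 0. Creld2 (chr15:88819396-88819695, plus strand) has 1 at -126, and Pdia6 (chr12:17266339-17266638, plus strand) has 1 at -98.
Hsp90b1: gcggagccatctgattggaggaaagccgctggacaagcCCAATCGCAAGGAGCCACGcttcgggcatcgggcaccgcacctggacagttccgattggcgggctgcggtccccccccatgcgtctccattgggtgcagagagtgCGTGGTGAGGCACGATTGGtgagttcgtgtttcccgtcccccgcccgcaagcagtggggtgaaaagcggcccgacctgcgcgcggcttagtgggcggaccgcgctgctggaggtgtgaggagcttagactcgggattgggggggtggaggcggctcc
Creld2: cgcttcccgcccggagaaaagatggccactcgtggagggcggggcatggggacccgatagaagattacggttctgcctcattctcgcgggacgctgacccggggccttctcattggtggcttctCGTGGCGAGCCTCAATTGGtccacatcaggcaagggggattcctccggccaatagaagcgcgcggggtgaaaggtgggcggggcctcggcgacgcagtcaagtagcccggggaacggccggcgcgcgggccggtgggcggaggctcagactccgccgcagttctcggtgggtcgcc
Pdia6: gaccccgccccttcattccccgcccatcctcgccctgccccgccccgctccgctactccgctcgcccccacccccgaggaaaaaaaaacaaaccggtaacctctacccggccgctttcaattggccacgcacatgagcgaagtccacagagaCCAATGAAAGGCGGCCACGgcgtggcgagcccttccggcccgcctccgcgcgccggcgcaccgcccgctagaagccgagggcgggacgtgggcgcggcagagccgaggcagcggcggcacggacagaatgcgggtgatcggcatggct

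Heat shock genes of the cytosol were less even. Of 15 tested 5 were higher and 2 lower, with a median log2 fold change of 0.45, and 2 were higher without APX3330 replicate 2, 3 without Control replicate 1 and 9 without APX3330 replicate 1. Hsph1, an HSP110 chaperone, measured 48.2, 52.5 and 32.4 CPM in Control and 50.8, 179.6 and 142 CPM in APX3330 (log2 fold change 1.48 ± 0.332 (SE), adjusted p = 0.0078), where replicate 1 of APX3330 overlapped Control. Dnaja1, an HSP40 co-chaperone, stood at 90.9, 95.5 and 93.1 CPM in Control and 112, 228 and 169 CPM in APX3330 (log2 fold change 0.87 ± 0.189 (SE), adjusted p = 0.00671). Hspb8, a small heat shock protein abundant in muscle, fell, at 77.3, 54.6 and 61 CPM in Control and 31.2, 35.1 and 30.8 CPM in APX3330 (log2 fold change -0.99 ± 0.149 (SE), adjusted p = 0.000619). Cryab, of the same family and also abundant in muscle, was the other member that fell, at 40.1, 28.3 and 25.7 CPM in Control and 17.4, 20.9 and 12.3 CPM in APX3330 (log2 fold change -0.90 ± 0.2 (SE), adjusted p = 0.00779).

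**Figure D3:**
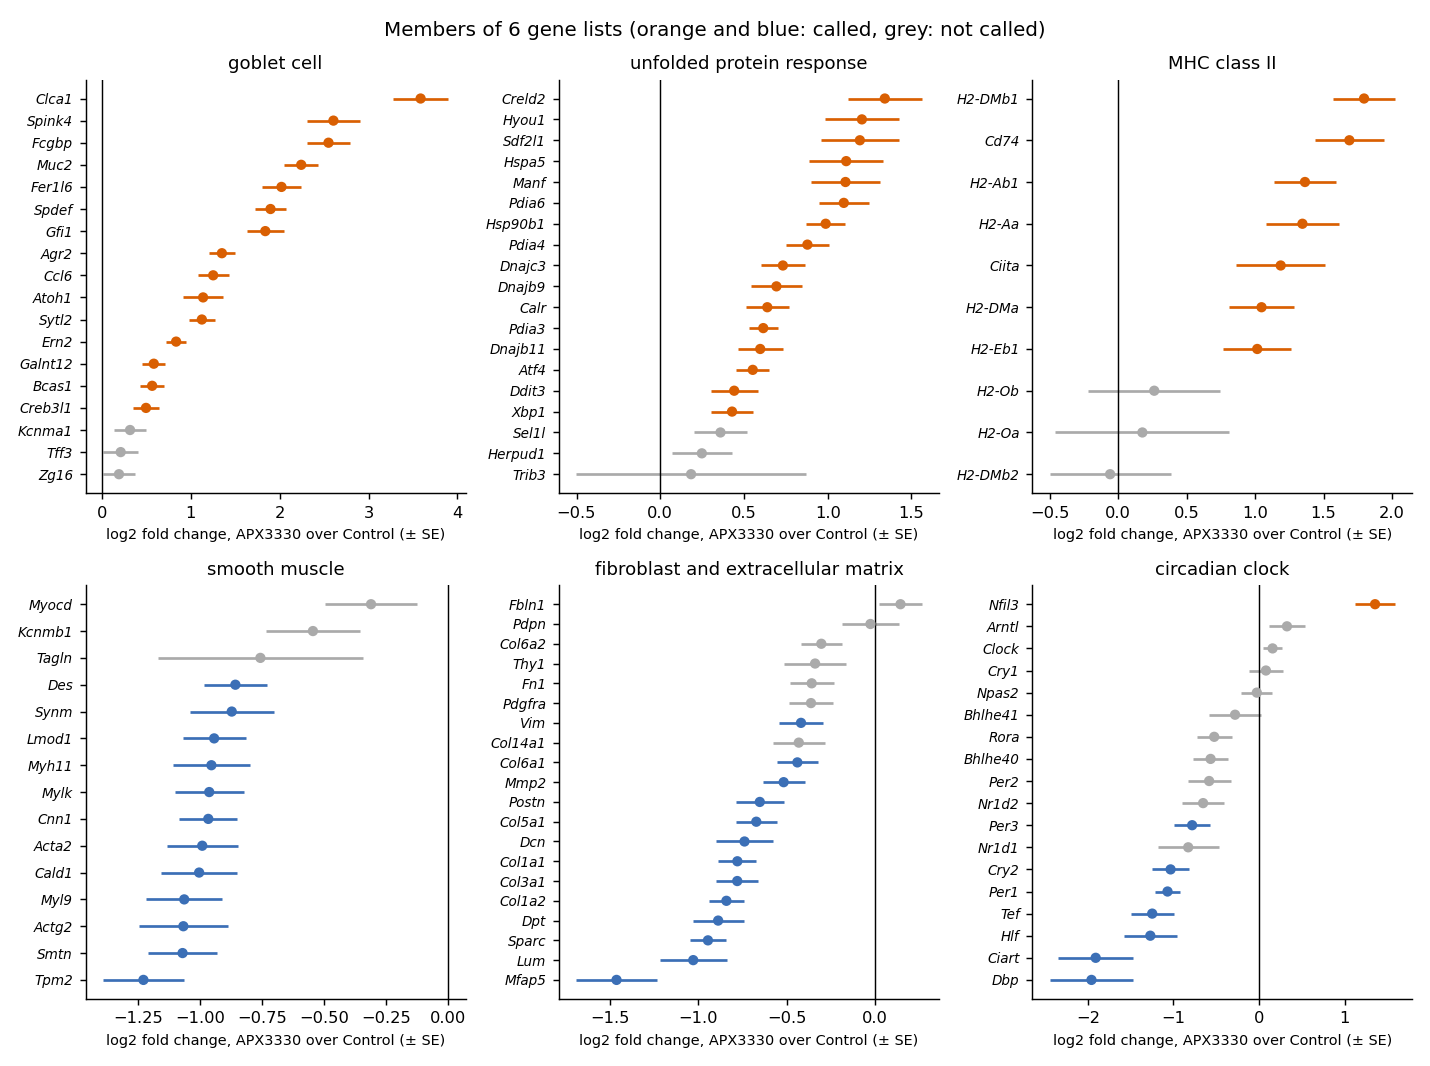
Log2 fold change of APX3330 over Control (x axis, points) with its SE (lines) for tested members of 6 gene lists, with 1 clock gene not shown. Orange members were called higher, blue lower and grey were not called; 15 of 18 goblet cell, 16 of 19 unfolded protein response and 7 of 10 MHC class II genes lie to the right as called, and 12 of 15 smooth muscle genes to the left.

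Tuft cell genes were higher than in Control in 9 of 16 members tested, with 1 lower and a median log2 fold change of 0.88. Than at saline D27, D48 and D100, 0, 5 and 0 members were higher and 0, 2 and 0 lower. The medians against saline were -0.336, 0.544 and -0.129, and 0.4 against D48 replicate 1 alone. Trpm5, the taste-type cation channel of tuft cells, lay at 2.12, 4.82 and 4.33 CPM in Control and 14.5, 15 and 15.5 CPM in APX3330 (log2 fold change 2.00 ± 0.285 (SE), adjusted p = 0.000403). Dclk1, the kinase most used as a tuft cell marker, measured 14.1, 17 and 12.5 CPM in Control and 30.3, 33.9 and 22.6 CPM in APX3330 (log2 fold change 0.99 ± 0.166 (SE), adjusted p = 0.00126). Gnat3, the taste G protein gustducin, stood at 0.193, 0.146 and 0.266 CPM in Control and 1.96, 1.47 and 1.34 CPM in APX3330 (log2 fold change 2.92 ± 0.499 (SE), adjusted p = 0.00143). Rgs13 lay at 0.257, 0.657 and 1.66 CPM in Control and 4.46, 3.6 and 4.55 CPM in APX3330 (log2 fold change 2.28 ± 0.44 (SE), adjusted p = 0.00308). Sh2d7, an adaptor outside the list, was at 0.901, 0.949 and 1.4 CPM in Control and 6.96, 9.2 and 7.3 CPM in APX3330 (log2 fold change 2.84 ± 0.373 (SE), adjusted p = 0.00023). None of these 5 genes overlapped between the groups, which was a condition of the rule that picked Sh2d7. Trpm5, Gnat3 and Rgs13 were low in every library. Cd24a, also of the list but not limited to tuft cells, measured 216, 235 and 251 CPM in Control and 428, 370.1 and 309.6 CPM in APX3330 (log2 fold change 0.66 ± 0.114 (SE), adjusted p = 0.00155). With Control replicate 2 as the only Control library 2 members were called higher.

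Other epithelial lists moved in few members. Of 18 enteroendocrine genes 1 was higher and 2 lower, and the call of Insl5, a peptide hormone of the distal colon at 33.9, 36.2 and 41.7 CPM in Control and 70.5, 55.2 and 53.3 CPM in APX3330 (log2 fold change 0.68 ± 0.161 (SE), adjusted p = 0.0111), was lost without Control replicate 1 (adjusted p = 0.054). Of 21 crypt stem cell and Wnt target genes 2 were higher and 0 lower, and Lgr5, the crypt stem cell receptor, stood at 16.9, 18.6 and 14.5 CPM in Control and 8.65, 8.07 and 11.9 CPM in APX3330 (adjusted p = 0.0927). Of 22 proliferation genes 3 were higher, led by the mitotic kinase Plk1 at 74.4, 76.6 and 83.1 CPM in Control and 121, 109 and 127 CPM in APX3330 (log2 fold change 0.61 ± 0.122 (SE), adjusted p = 0.00387). Of 19 genes of regenerating epithelium 0 were higher and 2 lower, Sprr1a and Anxa3. Each of these counts fell to 0 or 1 for at least 1 direction when 1 library was left out: without Control replicate 1, 0 enteroendocrine, 0 stem cell and 1 proliferation gene were higher and 1 enteroendocrine and 1 regenerating gene lower. Proliferation genes were also down to 1 without APX3330 replicate 3 or Control replicate 2, stem cell genes to 1 without APX3330 replicate 1 or 3 or Control replicate 3, regenerating genes to 1 without APX3330 replicate 3 or Control replicate 3, and enteroendocrine genes called lower to 0 without APX3330 replicate 1 or 3 and to 1 without any other library. Sprr1a had a log2 fold change of -0.66 with Control replicate 2 alone, against -4.32 to -2.96 when 1 library was left out. Anxa3 lost its call without any of 5 libraries. Than at saline D27, D48 and D100, 6, 8 and 2 regenerating genes were lower and 0 higher, with medians of -0.71, -0.87 and -0.35. Their median was -0.89 against D48 replicate 1 alone. Without D100 replicate 1, 2 stayed lower. Cdx2, the homeobox factor of intestinal identity, lay at 37, 26.2 and 25.4 CPM in Control and 112, 102 and 137 CPM in APX3330 (log2 fold change 1.99 ± 0.255 (SE), adjusted p = 0.00019), and its groups did not overlap. Isx, an intestinal homeobox factor that represses vitamin A uptake, measured 0.386, 0.584 and 0.732 CPM in Control and 3.72, 4.6 and 7.17 CPM in APX3330 (log2 fold change 3.17 ± 0.55 (SE), adjusted p = 0.00155).

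Transport genes of colonocytes moved both ways: of 24 tested 6 were higher and 8 lower, with a median log2 fold change of -0.24. The channel ENaC takes up sodium in the distal colon under aldosterone, and RNA of 2 of its subunits and of a kinase of that response was lower. Scnn1b, the beta subunit, stood at 35.2, 24.1 and 28.4 CPM in Control and 4.19, 8.94 and 8.98 CPM in APX3330 (log2 fold change -1.99 ± 0.238 (SE), adjusted p = 0.000122). Scnn1g, the gamma subunit, lay at 41.2, 37.9 and 48.7 CPM in Control and 1.28, 8.27 and 8.24 CPM in APX3330 (log2 fold change -2.84 ± 0.517 (SE), adjusted p = 0.002), with replicate 1 of APX3330 the lowest. Sgk1, the kinase that aldosterone induces, measured 610.0, 668 and 377 CPM in Control and 73.5, 204 and 209 CPM in APX3330 (log2 fold change -1.77 ± 0.314 (SE), adjusted p = 0.00179). Slc9a3 (NHE3), the exchanger of electroneutral sodium uptake, was higher, at 78.7, 102 and 87.7 CPM in Control and 169, 262 and 618 CPM in APX3330 (log2 fold change 1.97 ± 0.396 (SE), adjusted p = 0.0039). Aqp4, a water channel, was one of the most even changes, at 102, 140.3 and 106 CPM in Control and 718, 675 and 787 CPM in APX3330 (log2 fold change 2.65 ± 0.178 (SE), adjusted p = 1.33e-06). Of the 14 members called, the other 9 were Slc26a3, Car1, Car4, Atp12a and Ceacam20 among those lower and Slc5a8, Cftr, Slc12a2 and Guca2b among those higher. Without Control replicate 1 or 3 only 3 members were higher, without Control replicate 2 only 5 were lower, and with Control replicate 2 alone 1 was higher and 3 lower.

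Aqp4 also separated APX3330 from 2 of the 3 saline groups. Its means were 401 ± 40.2, 286 ± 72.7 and 764 ± 72.9 CPM in saline D27, D48 and D100, and APX3330 minus saline gave log2 fold changes of 0.86, 1.35 and -0.07, with adjusted p = 0.0102, 0.00019 and 0.903. Scnn1b was lower than at D48 (log2 fold change -0.92, adjusted p = 0.0142) and was not called against D27 or D100. Of the 24 transport genes 7, 10 and 1 were higher and 1, 2 and 0 lower than at D27, D48 and D100. Their medians were 0.30, 0.39 and 0.19, and 0.25 against D48 replicate 1 alone. Without D100 replicate 1, 0 were higher and 1 lower than at D100. Against D48 replicate 1 alone Aqp4 stayed higher (adjusted p = 0.00663) and Scnn1b was not called (adjusted p = 0.133).

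Immune transcripts were higher in APX3330 for antigen presentation, T cells and plasma cells. MHC class II, which presents peptides to CD4 T cells, had 7 of 10 members higher and 0 lower, with a median log2 fold change of 1.12. Cd74, the invariant chain, stood at 204, 202 and 266 CPM in Control and 832, 650.4 and 684 CPM in APX3330 (log2 fold change 1.69 ± 0.254 (SE), adjusted p = 0.00061). H2-DMb1, which loads peptides, lay at 12.5, 11.8 and 14.5 CPM in Control and 45.9, 45.1 and 43.8 CPM in APX3330 (log2 fold change 1.79 ± 0.227 (SE), adjusted p = 0.000174). H2-Aa and H2-Ab1, the 2 chains of the class II molecule of this strain, lay at 123, 135 and 157 CPM in Control and 410.3, 332 and 312 CPM in APX3330 and at 112, 112 and 140.2 CPM in Control and 353, 303 and 282 CPM in APX3330 (log2 fold changes 1.34 ± 0.266 and 1.36 ± 0.228, adjusted p = 0.00356 and 0.00125). All 4 genes were higher in every APX3330 library than in any Control library. Leaving out 1 library left 5 to 7 members higher, and Control replicate 2 alone left 2.

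T cell genes were higher in 7 of 20 members tested and lower in 0, but only 3 or 4 were called when any 1 of the 6 libraries was left out and 0 with Control replicate 2 alone. Cd8a, the co-receptor of cytotoxic T cells and of intraepithelial lymphocytes, stood at 1.93, 1.39 and 1.66 CPM in Control and 9.12, 6.67 and 8.44 CPM in APX3330 (log2 fold change 2.27 ± 0.53 (SE), adjusted p = 0.01). Gzmb, a cytotoxic granule protease, lay at 0.836, 0.511 and 1.26 CPM in Control and 5.47, 3.4 and 3.42 CPM in APX3330 (log2 fold change 2.21 ± 0.422 (SE), adjusted p = 0.00284), one of 3 of 11 cytotoxic lymphocyte genes that were higher, a count of 1 without Control replicate 1 or 2. Trat1, an adaptor of the T cell receptor complex, measured 0.129, 0.365 and 0 CPM in Control and 6.49, 5.33 and 2.28 CPM in APX3330 (log2 fold change 4.81 ± 0.629 (SE), adjusted p = 0.000225). These genes were low in all libraries and did not overlap between the groups, a condition of rules that picked Cd8a and Trat1. Of 20 B cell and plasma cell genes 6 were higher and 0 lower. Igha, the constant region of IgA, stood at 969, 1308 and 1258 CPM in Control and 3510.1, 3619.7 and 2187 CPM in APX3330 (log2 fold change 1.40 ± 0.252 (SE), adjusted p = 0.00192). Jchain, which joins IgA units, lay at 319, 381 and 411 CPM in Control and 1018, 1046 and 592 CPM in APX3330 (log2 fold change 1.26 ± 0.233 (SE), adjusted p = 0.0023). Pigr, the epithelial receptor that carries IgA into the lumen, measured 4566, 4888 and 3995 CPM in Control and 7193, 6662 and 6764 CPM in APX3330 (log2 fold change 0.62 ± 0.113 (SE), adjusted p = 0.00219). The B cell marker Ms4a1 was not called (adjusted p = 0.684). With Control replicate 2 alone 0 members of this list were called.

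Interferon response genes were higher in 6 of 21 members, with a median log2 fold change of 0.68. Irf9, a subunit of the interferon-activated factor ISGF3, stood at 57.5, 61.1 and 58.5 CPM in Control and 109.7, 86.7 and 104 CPM in APX3330 (log2 fold change 0.76 ± 0.126 (SE), adjusted p = 0.00114). Its partner Stat2 was at 72.3, 48.4 and 53.7 CPM in Control and 135, 81.8 and 115 CPM in APX3330 (log2 fold change 0.93 ± 0.211 (SE), adjusted p = 0.00858). Mx1, a dynamin-like antiviral gene known to be defective in C57BL/6, lay at 11.2, 4.67 and 8.45 CPM in Control and 19.2, 19.4 and 17.4 CPM in APX3330 (log2 fold change 1.20 ± 0.24 (SE), adjusted p = 0.00385). Without Control replicate 2, the lowest for Mx1 and Stat2, 3 members were called. Macrophage genes gave 3 of 20 higher, 1 without APX3330 replicate 1 or 2 or Control replicate 1, and 1 lower. Adgre1 (F4/80) lay at 8.17, 14.9 and 12.7 CPM in Control and 30.5, 28.9 and 21.8 CPM in APX3330 (log2 fold change 1.19 ± 0.24 (SE), adjusted p = 0.00409). Cd163, a scavenger receptor of resident macrophages, was lower, at 14.1, 23.6 and 24.9 CPM in Control and 4.93, 7.67 and 7.24 CPM in APX3330 (log2 fold change -1.66 ± 0.347 (SE), adjusted p = 0.0051). Of 17 genes of neutrophils and acute inflammation 2 were higher, Fpr1 and Csf3r, and 3 lower, with a median log2 fold change of 0.619. With 1 library left out, log2 fold changes were 2.68 to 4.15 for Fpr1 and 0.902 to 1.52 for Csf3r. Members called higher were down to 0 without APX3330 replicate 1 or 3 or Control replicate 1 or 3, and to 1 without APX3330 replicate 2. The acute phase gene Saa1 lay at 678, 749 and 526 CPM in Control and 183, 441 and 344 CPM in APX3330 (log2 fold change -1.01 ± 0.255 (SE), adjusted p = 0.0148), and S100a8 and S100a9, the most abundant neutrophil proteins, were at or below 3.28 CPM in all 6 libraries, highest in Control replicates 1 and 3 for S100a9.

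Against the saline groups, which share the APX3330 libraries, the immune lists were mostly lower or not called. T cell genes gave 0 of 20 higher and 2, 11 and 0 lower than at D27, D48 and D100, with median log2 fold changes of -0.89, -1.38 and -0.43. B cell and plasma cell genes gave 1, 1 and 0 of 20 higher and 4, 12 and 0 lower, with medians of -1.04, -1.51 and -0.49. MHC class II genes gave 0 of 10 higher and 0, 8 and 0 lower, with medians of -0.56, -0.97 and -0.14. Macrophage and dendritic cell genes gave 0 of 20 higher and 3, 10 and 0 lower, with medians of -0.36, -1.01 and -0.57. Interferon response genes gave 0 of 21 higher and 5, 4 and 3 lower, with medians of -0.82, -0.38 and -0.98, and of the 11 cytotoxic lymphocyte genes 0 were called against any saline group. Against D48 replicate 1 alone the numbers lower were 3 for T cell, 9 for B cell and plasma cell, 1 for MHC class II, 7 for macrophage and 0 for interferon response genes, whose median turned to 0.25. No list of the 5 had a member higher there. Without D100 replicate 1 the interferon response genes had 2 lower and the others of these 5 lists 0. Neutrophil and acute inflammation genes gave 0 of 17 higher and 3, 14 and 0 lower than at D27, D48 and D100. Their medians were -1.10, -2.62 and -0.76, and -2.92 against D48 replicate 1 alone. Mast cell genes gave 0, 1 and 0 of 8 higher and 2, 5 and 2 lower, with medians of -0.82, -1.99 and -0.88. Their median was -1.814 against D48 replicate 1 alone. Without D100 replicate 1, 2 mast cell and 0 neutrophil genes were lower than at D100.

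Smooth muscle genes were lower in APX3330. Of 15 members tested 12 were lower and 0 higher, with a median log2 fold change of -0.96, and the list took 1.46%, 1.38% and 1.41% of the counts in Control and 0.752%, 0.736% and 0.566% in APX3330. Acta2, smooth muscle actin (chromosome 19, 34241090 to 34255590, minus strand, GRCm38), measured 2019.6, 1964 and 2041 CPM in Control and 1166, 1037 and 828 CPM in APX3330 (log2 fold change -0.99 ± 0.142 (SE), adjusted p = 0.000414). Cnn1, the actin-binding calponin, stood at 890.2, 894 and 858 CPM in Control and 475, 479 and 398 CPM in APX3330 (log2 fold change -0.97 ± 0.117 (SE), adjusted p = 0.000127). Smtn, smoothelin of contractile muscle, lay at 409.5, 359.8 and 387 CPM in Control and 205, 183 and 163 CPM in APX3330 (log2 fold change -1.07 ± 0.141 (SE), adjusted p = 0.00023). Tpm2, a tropomyosin, and Lmod1, a leiomodin, had log2 fold changes of -1.23 ± 0.163 and -0.94 ± 0.127 (adjusted p = 0.000245 and 0.000259). The 3 Control libraries lay close together for these 5 genes and all above APX3330, and the fall was also called against Control replicate 2 alone in 11 members. In saline D27, D48 and D100 Acta2 had means of 1647 ± 235, 1103 ± 99.5 and 1102 ± 169 CPM. Against saline D27 all 5 were lower too (adjusted p at most 0.0211), and against saline D100 none was called (adjusted p at least 0.285). Against saline D48 Lmod1 alone of the 5 was called, and lower (log2 fold change -0.61, adjusted p = 0.004), and it stayed lower against D48 replicate 1 alone (adjusted p = 0.0167). Of the 15 members 11, 1 and 0 were lower than at D27, D48 and D100 and 0 higher, with medians of -0.69, -0.067 and -0.22. The median was -0.158 against D48 replicate 1 alone.

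Mir145a, a microRNA of smooth muscle that holds its contractile state, was the largest of the even falls. Its row measured 10.2, 9.28 and 11.2 CPM in Control and 0.878, 1.47 and 1.34 CPM in APX3330 (log2 fold change -3.05 ± 0.304 (SE), adjusted p = 3.14e-05). Even changes were picked only among genes whose groups did not overlap. The libraries were not made for small RNA, so the row may hold reads of the longer primary transcript, and whether reads were counted by strand is not given in the sources used here. Kcne4, a potassium channel subunit, stood at 13.4, 11.5 and 11.8 CPM in Control and 3.92, 2.8 and 2.08 CPM in APX3330 (log2 fold change -2.06 ± 0.251 (SE), adjusted p = 0.000137). Angptl7, a secreted angiopoietin-like protein, was at 51.9, 38.6 and 43.6 CPM in Control and 12.9, 12.3 and 9.58 CPM in APX3330 (log2 fold change -1.95 ± 0.342 (SE), adjusted p = 0.00166).

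Extracellular matrix and fibroblast genes fell in 13 of 20 members, with 0 higher and a median log2 fold change of -0.58. Col1a2 and Col1a1, the chains of type I collagen, lay at 588, 667 and 614 CPM in Control and 391, 316 and 337 CPM in APX3330 and at 461, 554 and 488 CPM in Control and 322, 249 and 304 CPM in APX3330 (log2 fold changes -0.84 ± 0.0987 and -0.78 ± 0.107, adjusted p = 0.000113 and 0.000302). Sparc, a matrix glycoprotein that binds collagen, measured 401, 465 and 443 CPM in Control and 256, 209 and 215 CPM in APX3330 (log2 fold change -0.94 ± 0.102 (SE), adjusted p = 6.28e-05). Mfap5, a microfibril protein, stood at 20.3, 18.5 and 21 CPM in Control and 10.1, 4.8 and 6.83 CPM in APX3330 (log2 fold change -1.46 ± 0.228 (SE), adjusted p = 0.000788). In none of these 4 genes did the groups overlap, and 7 members of the list were also lower against Control replicate 2 alone. Col1a2 was also lower than in saline D27 and D48 (log2 fold changes -0.4 and -1.06, adjusted p = 0.0222 and 2.7e-05), and than in D48 replicate 1 alone (adjusted p = 0.000702). It was not called against D100 (log2 fold change -0.16, adjusted p = 0.536). Of the 20 members 5, 14 and 0 were lower than at D27, D48 and D100 and 0 higher, with medians of -0.28, -0.63 and -0.082, and 12 were lower than in D48 replicate 1 alone.

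Genes of enteric neurons and glia fell in 10 of 17 members, with 0 higher and a median log2 fold change of -0.67. Prph, the intermediate filament peripherin of enteric neurons, measured 18.4, 15.9 and 15.2 CPM in Control and 10, 7.2 and 8.11 CPM in APX3330 (log2 fold change -0.97 ± 0.161 (SE), adjusted p = 0.00124). Erbb3, a neuregulin receptor of glia that epithelial cells also express, stood at 434, 497 and 362 CPM in Control and 267, 229.6 and 290.3 CPM in APX3330 (log2 fold change -0.72 ± 0.148 (SE), adjusted p = 0.00468). Leaving out Control replicate 1 left 4 members lower, APX3330 replicates 2 and 3 each left 5, Control replicate 3 left 6, and Control replicate 2 alone left 2. Than at saline D27, D48 and D100, 6, 2 and 0 members were lower and 0 higher. The medians were -0.779, -0.18 and -0.21, and -0.225 against D48 replicate 1 alone. Endothelial genes, from another part of the gut wall, gave 2 of 16 higher and 0 lower, with a median log2 fold change of -0.05, and 0 were higher without APX3330 replicate 1 or Control replicate 2 and 1 without APX3330 replicate 3 or Control replicate 1 or 3.

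The largest falls of the comparison were of squamous epithelium and skeletal muscle genes. All 16 skeletal muscle genes tested and 12 of 15 squamous genes were lower, with 0 higher. Skeletal muscle genes took 0.246%, 0.00329% and 0.110% of the counts in Control replicates 1, 2 and 3 and at most 0.00220% in APX3330, and squamous genes took 0.148%, 0.00124% and 0.0703% in Control and at most 0.000867% in APX3330. Among the saline libraries squamous genes reached 0.0913% in D100 replicate 1, 0.0104% in D48 replicate 2 and at most 0.00121% in the others, and skeletal muscle genes were at most 0.00532%, in D100 replicate 1. Krt1, a keratin of stratified epithelium, had 4448, 6 and 2608 counts in Control and 0, 0 and 0 in APX3330. Summed over its libraries the Control group was at least 2480.0-fold above APX3330, taking 3 counts over the group as the limit that a count of 0 allows, which covers counting error only. Myh8, a skeletal myosin, had 9427, 6 and 3981 counts in Control and 1, 0 and 0 in APX3330, and Krtdap, a differentiation protein of keratinocytes, had 516, 3 and 227 counts in Control and 1, 0 and 0 in APX3330. These falls rested on replicates 1 and 3 of Control, where the counts lie. With Control replicate 2 as the only Control library, 0 members of either list were called. Smooth muscle genes, in contrast, took nearly equal shares of the 3 Control libraries. Other genes that were lower and had this pattern were Car3, known from muscle and fat, at 151, 4.75 and 83.9 CPM in Control and 5.2, 1.73 and 0.402 CPM in APX3330 and Scd3, a desaturase of skin glands, at 48.9, 0.803 and 32.2 CPM in Control and 0.135, 0.6 and 0.469 CPM in APX3330. Exocrine pancreas genes gave 0 of 13 called in either direction by edgeR, with 1 higher and 0 lower at an unadjusted p below 0.05, and DESeq2 called 1 higher. All 13 were lower than at saline D48, with a median log2 fold change of -11.59, and 0 were called against D48 replicate 1 alone.

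**Figure D4:**
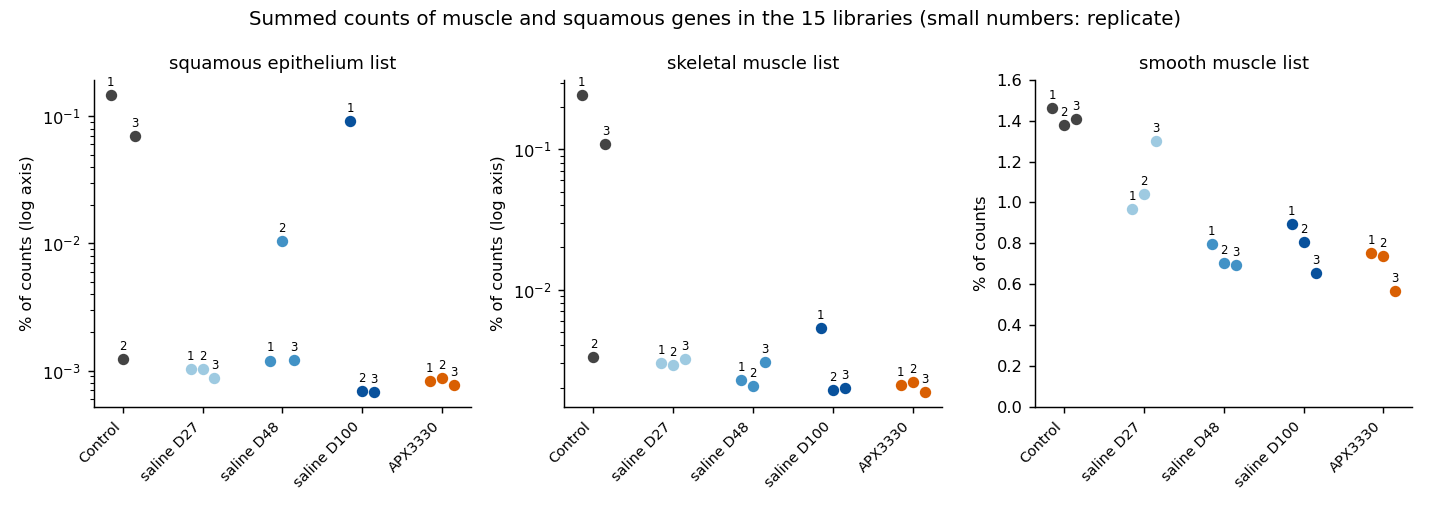
Summed counts of the squamous epithelium, skeletal muscle (log axes) and smooth muscle lists as a percentage of all counts in each of the 15 libraries (points, numbered by replicate). Control replicates 1 and 3 stand out in the first and the second panel, at 0.148% and 0.0703% and at 0.246% and 0.110%. Saline D100 replicate 1 also stands out in the first, at 0.0913%, and all 3 Control libraries lie between 1.38% and 1.46% in the third.

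Posterior Hox genes, whose expression follows position along the gut, were lower in 7 of 11 members and higher in 0, with a median log2 fold change of -0.49. Hoxd13 lay at 249.5, 250.2 and 226 CPM in Control and 76.4, 137 and 73 CPM in APX3330 (log2 fold change -1.34 ± 0.263 (SE), adjusted p = 0.0034). Hoxd12 was at 11.9, 19.1 and 14.7 CPM in Control and 2.36, 3.67 and 1.07 CPM in APX3330 (log2 fold change -2.68 ± 0.57 (SE), adjusted p = 0.00569). Hoxd9 was at 10.9, 12.3 and 11.9 CPM in Control and 1.08, 2.13 and 2.88 CPM in APX3330 (log2 fold change -2.52 ± 0.364 (SE), adjusted p = 0.000421). The 3 Control libraries were alike for Hoxd9 and Hoxd13, including replicate 2, and none overlapped APX3330. Between 3 and 5 members were called when 1 library was left out, with 3 called without APX3330 replicate 3 or Control replicate 1 and 4 without Control replicate 2, and Control replicate 2 alone left 1. Than at saline D27, D48 and D100, 2, 2 and 0 of the 11 Hox members were higher and 0 lower, with medians of -0.08, -0.02 and 0.06. The Hox median was 0.031 against D48 replicate 1 alone and 0.574 against D100 without D100 replicate 1. The position of the sampled segment is not given in the labels, and its part in the falls of Hox, muscle and squamous genes was not tested.

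Clock genes were lower in 8 of 19 members and higher in 1, with a median log2 fold change of -0.65. The circadian clock is a loop in which CLOCK and ARNTL (BMAL1) bind E-boxes to drive Per, Cry and the output factors Dbp, Tef and Hlf. Per1, a repressor of the loop, lay at 124, 100.5 and 124 CPM in Control and 43.5, 61.5 and 61.1 CPM in APX3330 (log2 fold change -1.07 ± 0.15 (SE), adjusted p = 0.000357). Cry2, its partner, was at 55.6, 45.2 and 36 CPM in Control and 24.5, 21.3 and 21.1 CPM in APX3330 (log2 fold change -1.03 ± 0.219 (SE), adjusted p = 0.00568). Tef, an output factor that binds D-boxes, stood at 96.3, 68.5 and 109 CPM in Control and 40.4, 47.1 and 27.7 CPM in APX3330 (log2 fold change -1.25 ± 0.253 (SE), adjusted p = 0.00409). Nfil3, which represses D-box genes, was the member that rose, at 6.17, 6.72 and 3.26 CPM in Control and 11.2, 15.5 and 14.6 CPM in APX3330 (log2 fold change 1.36 ± 0.235 (SE), adjusted p = 0.00154). The drivers Arntl and Clock were not called (adjusted p = 0.333 and 0.354). No time of day is given for any sample, so hour of sampling and group cannot be told apart. Between 5 and 10 members were lower when 1 library was left out, and 0 with Control replicate 2 alone; 5 were lower without APX3330 replicate 3, Control replicate 1 or Control replicate 3.

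The E-box CACGTG was found in the promoter windows of 5 of the 16 clock members with an entry (31.2%), Per1, Cry1, Tef, Ciart and Bhlhe41, and in 10.9% of tested genes. Cry1 and Bhlhe41 were not called, so members with and without a called fall carried it. The D-box TTATGTAA was found in 1 member (Per3, 6.25%) and in 0.766% of tested genes. Per1 and Tef, which fell, are shown with the E-box in capitals, each as 1 of 2 RefSeq promoters. The Per1 window (chr11:69098699-69098998, plus strand) holds it with its first base at -166, and the Tef window (chr15:81802423-81802722, plus strand) at -127. In smooth muscle genes the CArG box, bound by serum response factor, was found in 1 of 11 members with an entry (Myl9, 9.09%) and in 1.61% of tested genes.
Per1: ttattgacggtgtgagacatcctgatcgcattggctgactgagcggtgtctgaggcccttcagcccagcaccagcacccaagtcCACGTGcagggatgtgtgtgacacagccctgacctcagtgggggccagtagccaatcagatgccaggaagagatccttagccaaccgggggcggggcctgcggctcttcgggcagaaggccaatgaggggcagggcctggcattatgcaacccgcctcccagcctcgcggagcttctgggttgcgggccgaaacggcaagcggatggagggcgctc
Tef: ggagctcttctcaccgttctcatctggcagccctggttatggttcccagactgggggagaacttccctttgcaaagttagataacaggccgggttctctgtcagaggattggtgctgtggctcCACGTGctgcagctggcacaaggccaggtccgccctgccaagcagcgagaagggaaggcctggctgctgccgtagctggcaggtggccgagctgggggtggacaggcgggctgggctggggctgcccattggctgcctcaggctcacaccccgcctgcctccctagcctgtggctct

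Apex1, which encodes the target of APX3330 (chromosome 14, 50924968 to 50927139, plus strand, GRCm38), was not called. It measured 3.73, 4.89 and 5.66 CPM in Control and 3.31, 4.33 and 5.16 CPM in APX3330 (log2 fold change -0.16 ± 0.288 (SE), adjusted p = 0.761), with overlapping groups, and its means in saline D27, D48 and D100 were 5.86 ± 1.37, 5.96 ± 1.94 and 5.6 ± 1.02 CPM. The compound acts on the protein, so RNA of Apex1 is no check of the treatment. Of 21 base excision repair genes tested 0 were called in either direction by edgeR, DESeq2 or limma, with a median log2 fold change of 0.07, and at an unadjusted p below 0.05 4 were higher and 0 lower. The smallest p of the list was that of Xrcc1, the scaffold of single-strand break repair, at 29.2, 27.2 and 26.6 CPM in Control and 34.5, 33.8 and 34.2 CPM in APX3330 (log2 fold change 0.30 ± 0.111 (SE), adjusted p = 0.0765).

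Transcription factors whose DNA binding is linked to APE1 redox function fell in 4 of 22 members, and 0 were higher, with a median log2 fold change of -0.11. Of these 4, 3 were AP-1 subunits of the Jun family. Junb stood at 177, 244 and 212 CPM in Control and 57, 99.2 and 116 CPM in APX3330 (log2 fold change -1.22 ± 0.211 (SE), adjusted p = 0.00156), and all APX3330 libraries lay below all Control libraries. Jun lay at 122, 132 and 129 CPM in Control and 59.8, 102 and 106 CPM in APX3330 (log2 fold change -0.52 ± 0.16 (SE), adjusted p = 0.04). Jund was at 31.7, 32.8 and 33.3 CPM in Control and 19.7, 25.1 and 20.4 CPM in APX3330 (log2 fold change -0.58 ± 0.154 (SE), adjusted p = 0.0189). Jun lost its call without APX3330 replicate 1 or any 1 Control library (adjusted p up to 0.0926), and Jund without APX3330 replicate 1 or 3 or Control replicate 3 (adjusted p up to 0.0653). Relb, a subunit of the non-canonical NF-kB dimer, measured 71.5, 69.7 and 62.5 CPM in Control and 50.3, 49.8 and 50.6 CPM in APX3330 (log2 fold change -0.43 ± 0.0885 (SE), adjusted p = 0.00427), with the APX3330 libraries nearly equal. Fos, the partner of Jun proteins in AP-1, stood at 174, 219 and 128 CPM in Control and 46.9, 114 and 120.1 CPM in APX3330 (adjusted p = 0.0741). Nfkb1 and Rela of the canonical NF-kB dimer, Hif1a, Stat3, Trp53 and Nfe2l2 had log2 fold changes of -0.02, -0.01, -0.41, -0.13, 0.25 and 0.32 and were not called. Leaving out APX3330 replicate 1 or Control replicate 3 left 2 members lower, and Control replicate 2 alone left 1, Junb.

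In saline D27, D48 and D100 Junb had means of 123 ± 9.14, 142 ± 30 and 124 ± 12.9 CPM. Against these groups Junb was lower than at D48 only (log2 fold changes -0.44, -0.65 and -0.45, adjusted p = 0.192, 0.0408 and 0.378). Jund was lower than at D27 and D48 (log2 fold changes -1.12, -0.95 and -0.49, adjusted p = 0.00265, 0.000924 and 0.178), and Relb than at D48 (log2 fold changes -0.28, -0.56 and 0.16, adjusted p = 0.0614, 0.000826 and 0.459). None of the 3 was called against D100. Of the 22 linked factors 1, 1 and 0 were higher and 1, 11 and 0 lower than at D27, D48 and D100. Their medians were -0.06, -0.36 and 0.01, and -0.37 against D48 replicate 1 alone. Against D48 replicate 1 alone Jund and Relb stayed lower (adjusted p = 0.0407 and 0.00557) and Junb was not called (adjusted p = 0.0799).

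**Figure D5:**
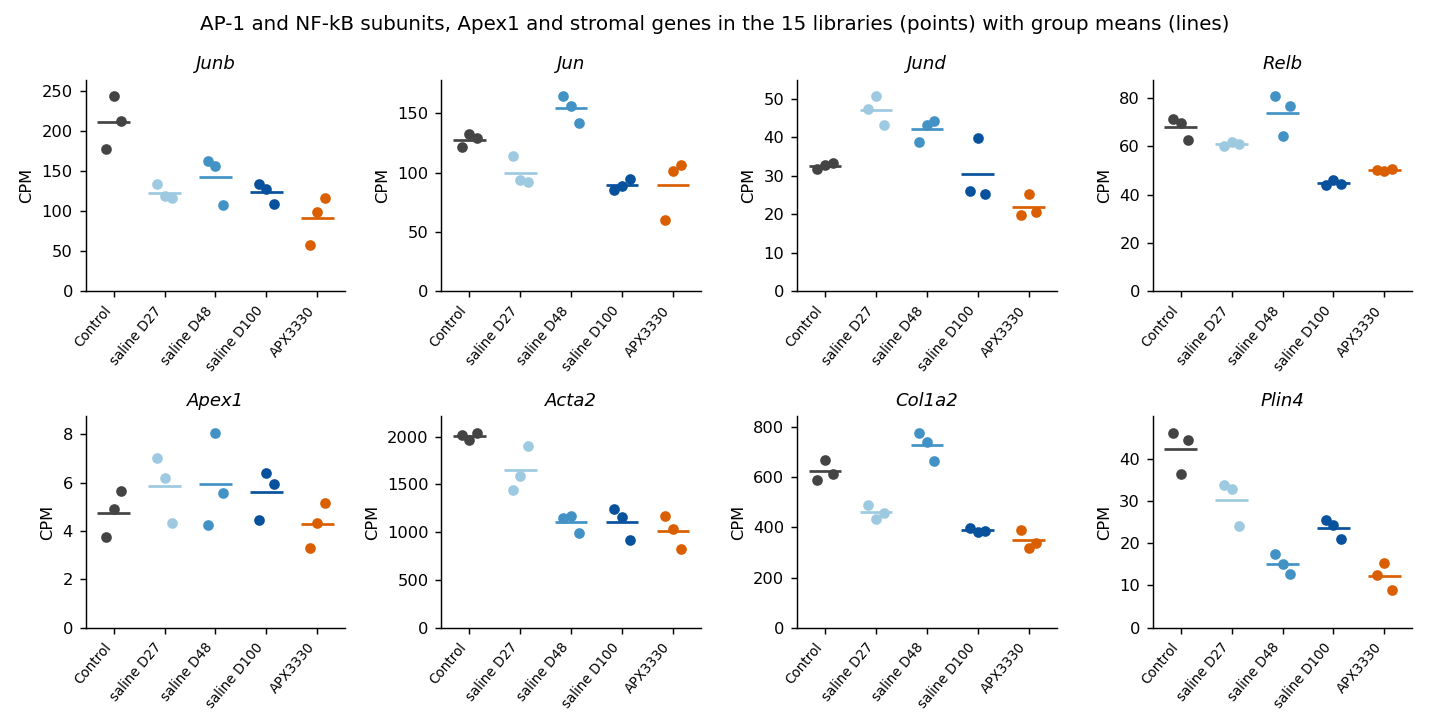
CPM of 3 Jun family genes, Relb, Apex1 and 3 stromal or fat genes in each of the 15 libraries (points), with the mean of each group of 3 (lines). Junb, Jun, Jund and Relb are lower in all 3 APX3330 libraries than in all 3 Control libraries, while Apex1 overlaps between all groups.

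Among targets of the linked factors, 11.1% of NF-kB and 26.3% of HIF-1 genes were lower than in Control, against 8.18% of all genes. The NF-kB share was near that of all genes. The median log2 fold change of the NF-kB list over Control was 0.083, against 0.0153 over all genes. Of 18 NF-kB feedback and target genes 0 were higher and 2 lower, 1 without APX3330 replicate 2 or Control replicate 2 or 3. Among them was Tnip1, an inhibitor of NF-kB signalling, at 166, 192 and 159 CPM in Control and 91.3, 108 and 122 CPM in APX3330 (log2 fold change -0.69 ± 0.117 (SE), adjusted p = 0.00132). Nfkbia, the classical feedback inhibitor, lay at 75.2, 105 and 135 CPM in Control and 71.9, 75.8 and 77 CPM in APX3330 (adjusted p = 0.074). Than at saline D27, D48 and D100, 2, 12 and 0 of the 18 NF-kB genes were lower and 0 higher. Their median log2 fold changes were -0.47, -0.96 and -0.20, and -0.90 against D48 replicate 1 alone. Of 19 HIF-1 targets 1 was higher and 5 lower, with a median log2 fold change of -0.28. Against saline D27, D48 and D100 they gave 2, 3 and 0 higher and 1, 4 and 1 lower, with medians of -0.14, -0.09 and -0.15. Against D48 replicate 1 alone the median of the HIF-1 targets was -0.152. Ddit4 (REDD1), an inhibitor of mTORC1, measured 129.6, 107 and 109.6 CPM in Control and 60.9, 56.4 and 58.1 CPM in APX3330 (log2 fold change -0.98 ± 0.134 (SE), adjusted p = 0.000279). Bnip3, a mitophagy receptor, stood at 8.94, 4.75 and 9.79 CPM in Control and 1.89, 2.73 and 3.82 CPM in APX3330 (log2 fold change -1.47 ± 0.316 (SE), adjusted p = 0.00601). Pdk1, a kinase that limits the use of pyruvate in mitochondria, was at 116, 109.7 and 114 CPM in Control and 64.5, 76.5 and 90.6 CPM in APX3330 (log2 fold change -0.55 ± 0.135 (SE), adjusted p = 0.0126). Leaving out any of APX3330 replicates 1 and 3 or Control replicates 1 and 3 left 3 HIF-1 targets lower, and Control replicate 2 alone left 1.

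NRF2 targets and thioredoxin genes, which respond to oxidants, moved both ways: 3 of 21 were higher and 5 lower, with a median log2 fold change of -0.03. Gclm, the modifier subunit of the glutathione-making ligase, lay at 74.3, 72.7 and 70.6 CPM in Control and 95.7, 87.8 and 93.2 CPM in APX3330 (log2 fold change 0.35 ± 0.0808 (SE), adjusted p = 0.0101). It was also higher than in saline D27 and D48 (adjusted p = 0.0032 and 9.18e-05) and was not called against D100 (adjusted p = 0.402). Against D48 replicate 1 alone it stayed higher (adjusted p = 0.0074). Fth1, ferritin heavy chain, lay at 1479, 1412 and 1376 CPM in Control and 921, 1009.9 and 957 CPM in APX3330 (log2 fold change -0.56 ± 0.0882 (SE), adjusted p = 0.000818). Txnip, the inhibitor of thioredoxin, was at 1002, 910.0 and 906 CPM in Control and 473, 718 and 680.2 CPM in APX3330 (log2 fold change -0.59 ± 0.153 (SE), adjusted p = 0.0173). Txnip lost its call without APX3330 replicate 1 or Control replicate 1 (adjusted p up to 0.0669). Without APX3330 replicate 1 or Control replicate 1 only 1 member was lower, without APX3330 replicate 3 or Control replicate 3 there were 2 and without APX3330 replicate 2 there were 3. Members called higher were down to 1 without APX3330 replicate 2 or Control replicate 1, and Control replicate 2 alone left 0 in either direction. Prdx6, a peroxiredoxin outside the list and among the 10 largest differences in CPM, stood at 3743, 3845 and 3924 CPM in Control and 1171, 2195 and 2115 CPM in APX3330 (log2 fold change -1.07 ± 0.216 (SE), adjusted p = 0.00405). Nuclear genes of the respiratory chain gave 0 of 23 called by edgeR, DESeq2 or limma, with 3 higher and 0 lower at an unadjusted p below 0.05. Mitochondrially encoded genes gave 0 of 10 higher and 2 lower, and 0 lower without APX3330 replicate 3 or Control replicate 1 or 3. Than at saline D27, D48 and D100, 4, 9 and 0 of these 10 were higher and 0 lower. Their medians were 0.33, 0.881 and 0.143, and 0.871 against D48 replicate 1 alone. Of the 23 nuclear genes 0, 6 and 0 were higher and 0 lower. Their medians were 0.014, 0.205 and -0.014, and 0.212 against D48 replicate 1 alone.

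Genes that detoxify foreign compounds fell in 5 of 20 members, with 0 higher and a median log2 fold change of -0.42. Without APX3330 replicate 1 or 2 or Control replicate 3 only 3 were lower, and Control replicate 2 alone left 2. Ces2a, a carboxylesterase, lay at 153, 171 and 234 CPM in Control and 66.5, 86.8 and 75.5 CPM in APX3330 (log2 fold change -1.28 ± 0.211 (SE), adjusted p = 0.00114). Sult1b1, a sulfotransferase, was at 130.5, 164 and 159 CPM in Control and 87.8, 102 and 106 CPM in APX3330 (log2 fold change -0.61 ± 0.12 (SE), adjusted p = 0.00333). Cyp3a13, a cytochrome P450, was at 103, 114 and 107 CPM in Control and 49.4, 57.6 and 74.2 CPM in APX3330 (log2 fold change -0.84 ± 0.18 (SE), adjusted p = 0.00601). Against saline the direction differed: 5, 9 and 0 of these 20 genes were higher than at D27, D48 and D100 and 0 lower. Their medians were 0.31, 0.53 and 0.16, and 0.27 against D48 replicate 1 alone. In lipid genes the counts were near the background of all genes, with 1 of 20 fatty acid oxidation genes higher and 2 lower and 2 of 21 lipid synthesis genes higher and 2 lower. The 2 lipid synthesis genes called higher were down to 0 without APX3330 replicate 3 or Control replicate 1 and to 1 without APX3330 replicate 1 or Control replicate 2 or 3, and the 2 called lower to 1 without APX3330 replicate 2 or 3 or Control replicate 1 or 3. Pdk4, a PPAR target that spares glucose, measured 26.1, 15 and 22.7 CPM in Control and 5.27, 7.33 and 6.97 CPM in APX3330 (log2 fold change -1.70 ± 0.238 (SE), adjusted p = 0.000345). Fabp2, a fatty acid binding protein of enterocytes, stood at 7.27, 9.86 and 7.19 CPM in Control and 39.2, 23.7 and 36.8 CPM in APX3330 (log2 fold change 2.04 ± 0.271 (SE), adjusted p = 0.000245). Than at saline D27, D48 and D100, 4, 10 and 0 of the 20 fatty acid oxidation genes were higher and 0 lower. Their medians were 0.318, 0.475 and 0.227, and 0.335 against D48 replicate 1 alone. Of the 21 lipid synthesis genes 1, 2 and 1 were higher and 6, 2 and 0 lower than at D27, D48 and D100. Their medians were -0.495, -0.181 and -0.188, and -0.077 against D48 replicate 1 alone. Plin4, a lipid droplet protein of fat and muscle, lay at 46.1, 36.4 and 44.5 CPM in Control and 12.4, 15.3 and 8.91 CPM in APX3330 (log2 fold change -1.79 ± 0.192 (SE), adjusted p = 6.28e-05) and was also lower than in saline D27 and D100 (adjusted p = 0.0032 and 0.0424). It was not called against D48 (adjusted p = 0.3) or, without D100 replicate 1, against D100 (adjusted p = 0.0827).

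Further even changes, with at most a 2-fold range within each group, lay outside the lists. Ddah1, which breaks down inhibitors of nitric oxide synthesis, measured 11.3, 12.7 and 10.8 CPM in Control and 61.7, 48.8 and 66.7 CPM in APX3330 (log2 fold change 2.35 ± 0.159 (SE), adjusted p = 1.33e-06). Kcnh3, a voltage-gated potassium channel, stood at 0.708, 0.876 and 0.466 CPM in Control and 8.58, 4.47 and 6.57 CPM in APX3330 (log2 fold change 3.25 ± 0.494 (SE), adjusted p = 0.000638). Tnfrsf8 (CD30), a receptor of activated lymphocytes, lay at 1.61, 2.34 and 2.46 CPM in Control and 9.8, 11.6 and 11 CPM in APX3330 (log2 fold change 2.34 ± 0.275 (SE), adjusted p = 0.000113). Tpsg1, a tryptase, was at 9.13, 10.2 and 9.79 CPM in Control and 60.3, 48.4 and 30.7 CPM in APX3330 (log2 fold change 2.26 ± 0.245 (SE), adjusted p = 6.77e-05). The rule that picked these 4 genes keeps only genes whose groups do not overlap. Among falls of this kind Galnt17, a glycosyltransferase family member, measured 17.1, 8.91 and 10.8 CPM in Control and 2.5, 1.93 and 2.08 CPM in APX3330 (log2 fold change -2.50 ± 0.337 (SE), adjusted p = 0.000266). Tenm2, a teneurin of neuronal contacts, stood at 6.75, 4.46 and 4.86 CPM in Control and 1.01, 1.13 and 0.871 CPM in APX3330 (log2 fold change -2.40 ± 0.396 (SE), adjusted p = 0.00114). Ngb, the globin of neurons, was at 16.9, 9.2 and 11.4 CPM in Control and 2.36, 4.4 and 2.75 CPM in APX3330 (log2 fold change -1.98 ± 0.341 (SE), adjusted p = 0.0015). Grpr, the receptor of gastrin-releasing peptide, was less even in Control because it was close to 0 there, with 0.0643, 0.073 and 0.266 CPM in Control and 3.44, 4.27 and 5.09 CPM in APX3330 (log2 fold change 4.90 ± 0.469 (SE), adjusted p = 2.13e-05).

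The APX3330 libraries differed among themselves. Of genes averaging 5 CPM or more in that group, Slc15a2, a peptide transporter, had the widest range, at 12, 0.2 and 17.8 CPM, and it varied in Control as well, at 5.15, 0.438 and 9.72 CPM. Pnliprp2, a lipase, lay at 2.44, 1.75 and 1.6 CPM in Control and 183, 146 and 17.1 CPM in APX3330 (log2 fold change 5.89 ± 1.29 (SE), adjusted p = 0.00684), with replicate 3 far below the others. Ces1c, a carboxylesterase, was likewise lowest in replicate 3, at 16.8, 10.9 and 1.21 CPM. Dhrs9, a retinol dehydrogenase, and Sgk2, a kinase related to Sgk1, were lowest in replicate 1, at 1.08, 7.4 and 10.3 and 6.28, 23.5 and 34.4 CPM. Replicate 3 was thus the lowest for Ang4, Retnlb, Reg4 and Pnliprp2 and replicate 1 for Scnn1g, Sgk1, Junb and Sgk2.

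Few genes set APX3330 apart from every other group. Of 18038 genes 3 (0.0166%) were higher and 4 (0.0222%) lower in APX3330 than in Control and in each of the 3 saline groups, comparisons that share the APX3330 libraries. In both directions together 9.08% of genes were called against saline D27, 19.7% against D48 and 0.504% against D100, 55 higher and 36 lower. With D48 replicate 1 alone and without D100 replicate 1, the genes called in all 4 comparisons were 1 higher, Nxpe2, and 1 lower, 2610037D02Rik. Rep15, an effector of the trafficking GTPase RAB15, lay at 89.2, 77.6 and 88.9 CPM in Control and 144, 146 and 136 CPM in APX3330 and at 79.3 ± 6.85, 90.1 ± 3.25 and 100.1 ± 14.6 CPM in the saline groups D27, D48 and D100. Its log2 fold change over Control was 0.74 ± 0.103 (SE), adjusted p = 0.000338, and the adjusted p against the saline groups was 0.00265, 0.00076 and 0.0433. Myzap, a junction protein of heart and epithelia, stood at 31.5, 39 and 31.2 CPM in Control and 13.2, 15.3 and 14.4 CPM in APX3330 and at 23.6 ± 4.55, 21.7 ± 3.14 and 26.2 ± 6.13 CPM in the saline groups (log2 fold change from Control -1.24 ± 0.179 (SE), adjusted p = 0.000421; against saline, adjusted p = 0.0241, 0.0287 and 0.0459). Sh3gl3, an endophilin of membrane bending, lay at 3.92, 2.34 and 4.06 CPM in Control and 0.878, 1.27 and 1 CPM in APX3330 and at 2.55 ± 0.309, 2.69 ± 0.413 and 2.98 ± 0.362 CPM in the saline groups (log2 fold change from Control -1.71 ± 0.298 (SE), adjusted p = 0.0016; against saline, adjusted p = 0.0199, 0.00607 and 0.0424). For these 3 genes the call against Control held when any 1 of the 6 libraries was left out. All 3 lost the call against saline D100 without D100 replicate 1 (adjusted p = 0.0991, 0.104 and 0.0596), and Rep15 kept its call against D48 replicate 1 alone (adjusted p = 0.0244) while Myzap and Sh3gl3 did not (adjusted p = 0.065 and 0.146).

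The other genes called against all 4 groups were less firm. Hao2, a peroxisomal hydroxyacid oxidase, lay at 263, 261 and 239 CPM in Control and 303, 413 and 417 CPM in APX3330 (log2 fold change 0.57 ± 0.182 (SE), adjusted p = 0.0458). Gal3st2c, a sulfotransferase, was at 43.4, 44.2 and 35.8 CPM in Control and 51.1, 77.3 and 58.2 CPM in APX3330 (log2 fold change 0.60 ± 0.193 (SE), adjusted p = 0.0479). Both calls against Control were lost without any of 5 of the 6 libraries, with adjusted p of up to 0.138 and 0.209. Ifit1bl1, of the interferon-induced IFIT family, stood at 283, 295 and 230.4 CPM in Control and 99.6, 148 and 182 CPM in APX3330 (log2 fold change -0.92 ± 0.233 (SE), adjusted p = 0.0159) and lost its call without APX3330 replicate 1 or Control replicate 1 (adjusted p up to 0.0568). Gal3st2c and Ifit1bl1 have near-identical neighbours among which reads may be split, so their values are uncertain, as are those of Ang4, Mptx1, Ces1c and Ces2a. Hao2, Gal3st2c and Ifit1bl1 also lost the call against saline D100 without D100 replicate 1 (adjusted p = 0.0827, 0.0568 and 0.0802). The fourth gene that was lower against all groups, 2610037D02Rik, has a clone name only.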

How the data were processed

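RNA sequencing counts were measured in 15 mouse colon libraries, 3 in each of 5 groups assigned from the labels. RNA was extracted with the RNeasy mini plus kit and libraries were made with the SMARTER mRNA-Seq kit, per the labels' protocols. The authors deposited 1 table of raw counts per gene, 56859 genes, of which 23552 had no count. The submitters' processing notes name GRCm38 and mm10, while aligner, counting tool and strand setting are not given in these sources.

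Counts were tested with edgeR 4.0.16 in R 4.3.3 by its quasi-likelihood test with TMM factors, on the 18038 genes kept by filterByExpr and on all 15 libraries, which share 1 estimate of the spread. APX3330 minus Control and APX3330 minus each saline group were taken from this fit, each with Benjamini-Hochberg adjustment over all 18038 genes and a threshold of 0.05. CPM are counts scaled to a library total of 1000000. Log2 fold changes are fitted values and SE is their standard error. A single gene with 3 libraries against 3 cannot go below 0.1 in an exact permutation test, so none was run. The fit was checked on simulated counts. Precision is set by 3 libraries a group and by totals of 13548661 to 17919613.

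The 39 gene lists, whose 712 genes have a row in the table, and the members were chosen with earlier results of these data known. Genes were named by rule: the 8 largest rises and 8 largest falls among called genes with at least 2 CPM and no overlap; 10 and 10 with at most a 2-fold range in each group; the 10 largest differences in CPM; the 8 widest ranges in APX3330 among genes of at least 5 CPM; genes called against all 4 groups; Apex1; and up to 5 members of each list by p. Predicted, clone and receptor segment names were passed over. Genes named outside these rules were chosen after their values were seen. Some genes that the rules pick are not reported here. Coordinates come from GENCODE M21, in which 49209 of 55311 symbols were found, and promoters from RefSeq GRCm38.p6.

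The alternatives were DESeq2 1.42.0 (size factors, and its own test), limma 3.58.1 voom with sample quality weights, no filter, only the 6 libraries, a replicate block, a test against a log2 change of 1, each library left out, and Control replicate 2 as the only Control library. Saline D48 replicate 1 as the only D48 library and saline D100 without replicate 1 were added after seeing the data. Figures were drawn with Python 3.11.15 and matplotlib 3.10.9.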

Additional observations from a re-analysis of the deposited data

How the results depend on the processing

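Against the 1291 genes called higher and 1475 called lower, DESeq2 size factors gave 1251 and 1513, the DESeq2 test 1508 and 1744, no filter on low counts 1492 and 1773, voom with quality weights 1287 and 1440 and only the 6 libraries 910 and 1257. The test against a log2 change of 1 gave 53 and 36, and Control replicate 2 as the only Control library gave 156 and 220, with fewer samples and a lone library assumed to vary like the other groups. Leaving out 1 library gave 696 to 1276 higher and 828 to 1216 lower. With the replicate block 1162 were higher and 1341 lower. Same-numbered APX3330 and Control libraries had deviations that correlated at 0.0484, 0.0199 and -0.00793, so they share only a number. Of the 240 named genes, 238 kept direction and side of the threshold with DESeq2 size factors, 222 with the replicate block and 112 with Control replicate 2 alone. There 2 genes changed sign, Lor to a log2 fold change of 0.972 and Acta1 to 0.321; both are in the squamous or skeletal muscle lists. No other named gene that was called changed sign under these alternatives. The median log2 fold change of all genes was 0.0153 with TMM factors and 0.00895 with DESeq2 size factors. In 2 alternatives chosen after seeing the data, the 1697 genes higher and 1860 lower than at saline D48 became 362 and 572 against D48 replicate 1 alone, and the 55 higher and 36 lower than at saline D100 became 33 and 32 without D100 replicate 1. Depth limits genes at a few counts per library, such as Trat1 and Retnlb in Control. Control treatment, sampling day, hour and gut segment are not settled by the labels, and values of genes with near-identical copies are uncertain.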
